A study of Mus musculus with 2 samples.

Results

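The 10 genes described here encode proteins of the Fanconi anemia pathway. They were listed by symbol (Fanca, Fancb, Fancc, Fance, Fancf, Fancg, Fancl, Fancm, Fanci and Fancd2) and each was found once among the 32285 genes of the deposited single-cell RNA-seq tables. Testicular cells of 1 control and 1 Brca1 vKO mouse had been sequenced at postnatal day (PD) 7, with 1 library for each. The Brca1 vKO mouse (vKO below) carried one floxed and one null Brca1 allele (f/-) together with the Vasa-Cre transgene, whose promoter is active in germ cells, so that its somatic cells kept a single floxed allele, and the labels give no alleles for the control mouse. More vKO than control cells were loaded. Each genotype was 1 mouse and 1 library. Differences between the libraries therefore have no replicate check, and all intervals below are 95% intervals that cover counting error only.

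The Fanconi anemia pathway repairs crosslinks between the strands of DNA, and mice that lack its genes have few germ cells. Its core complex is a ubiquitin ligase that FANCM brings to chromatin. The complex attaches ubiquitin to FANCD2 and FANCI, the modified pair closes around DNA, and nucleases, translesion polymerases and recombination proteins, BRCA1 among them, then complete the repair.

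In both libraries, 6 of the 10 members were at least 2-fold higher in germ than in somatic cells, beside 31.9% (control) and 26.4% (vKO) of all genes tested. In cycling over non-cycling somatic cells 5 of the 10 were at least 2-fold higher, beside 4.72% and 4.43% of all genes. Fanci and Fancd2, the substrates of the pathway, and Fanca and Fancg, which bind each other in the core complex, were past 2-fold in both comparisons. Fancf and Fancm were past it for germ cells only, Fancb for cycling cells only, and Fancc, Fance and Fancl for neither. Against cycling somatic cells alone, Fancf, Fancm and Fanci were past 2-fold in germ cells of both libraries and Fancd2 in the control only. The share of all genes was 32.1% and 26% there, so the count of members was close to the background. Between Brca1 vKO and control germ cells 0 of the 10 differed by 2-fold, beside 16.3% of all genes in either direction. The members were too few for this count to set them apart from that share.

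Cells were sorted into classes by pairs of marker genes. Germ cells had Ddx4 and Dazl, Sertoli cells Clu and Amhr2, stromal cells Dlk1 and Dcn, and myoid cells Acta2 and Myh11. This gave 889 germ, 2306 Sertoli, 751 stromal and 555 myoid cells in the control library and 246, 4439, 1733 and 1414 in the vKO library, out of 5077 and 8712 cells that passed the filters. Markers that had not been used to assign cells were also high in the germ and Sertoli classes. Sycp1 reached 543 UMIs per 1000000 (CPM) in control germ cells against 2.21 in Sertoli cells, and Sox9 reached 374 CPM in Sertoli cells against 5.62 in germ cells. For the stromal and myoid classes the unused markers were divided. Pdgfra and Tcf21, listed as stromal, stood at 581 and 436 CPM in control myoid cells and at 482 and 388 CPM in stromal cells. The others separated the classes. In control stromal and myoid cells Col3a1 stood at 1988 and 500 CPM, Tagln at 19.3 and 1927 CPM and Fbxl22 at 4.14 and 201 CPM. Dazl, at 1192 CPM in control germ cells, still gave 6.6 CPM in non-cycling Sertoli cells. Of the retained barcodes, 16 occurred in both libraries.

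A cell was called cycling where the S and G2M gene lists, which hold none of the members, made up at least 20 of every 10000 UMIs. Of the germ cells, 97.8% were called cycling by this cut in the control and 93.5% in the vKO library. The share was 29% and 27.6% among somatic cells, with Sertoli cells at 36.9% and 38.6% and the other classes between 11.4% and 15.4%. Sertoli cells were 852 of the 1046 cycling and 1454 of the 2566 non-cycling somatic cells in the control. In the vKO library they were 1715 of 2091 and 2724 of 5495. Ratios over the pooled somatic classes therefore also carry a difference in class make-up. The germ and somatic classes differed in the share called cycling as well as in type, and germ cells were also set beside cycling somatic cells alone. Germ cells below the cut still had medians of 17.7 and 16.3 list UMIs per 10000, against 5.76 and 6.18 in non-cycling somatic cells. Whether germ cells hold more of these lists outside the cycle was not tested. The study found BrdU, a label of replicating DNA, in a minority of undifferentiated spermatogonia of wild-type mice at PD7. That label marks replication in this group of germ cells. The cut used here counts S and G2M transcripts over all germ cells, so the shares are not like measures. Germ cells held more UMIs per cell, with a median of 34806 UMIs in the control and 33822.5 in the vKO library against 16354 and 12734.5 in somatic cells. Levels below are shares of all UMIs, which do not show this difference in content.

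**Figure D1:**
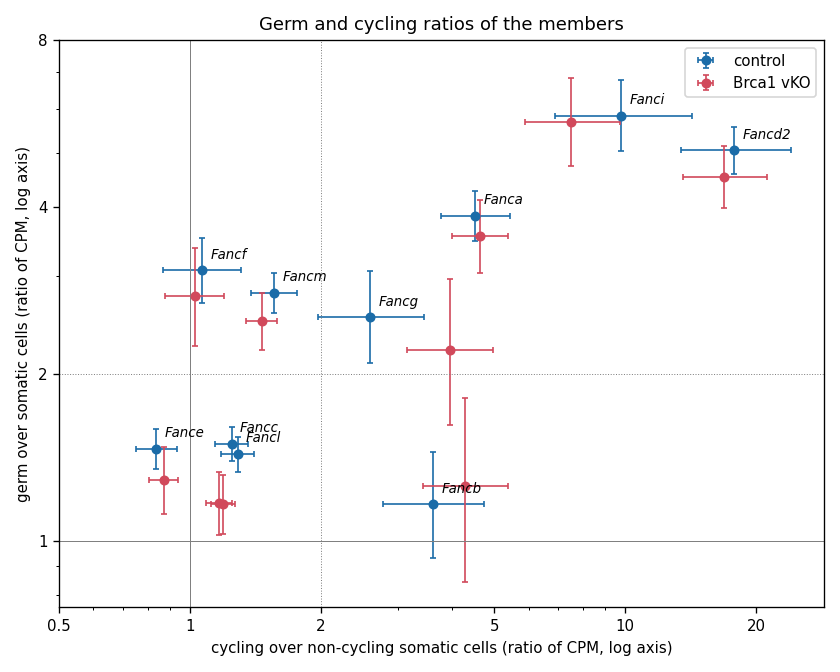
Each point is 1 member in 1 library, with the ratio of CPM in cycling over non-cycling somatic cells on the x axis and in germ over somatic cells on the y axis, both on log scales, and bars for 95% counting intervals. Dotted lines mark 2-fold. Fanci, Fancd2, Fanca and Fancg lie past both lines in both libraries, Fancf and Fancm past the germ line only, Fancb past the cycling line only, and Fance, Fancc and Fancl past neither.

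The germ count of 6 in 10 was set beside the same count over all genes. Of the 19141 genes with at least 20 UMIs in the control sums, 31.9% were at least 2-fold higher in germ than in somatic cells, and of 18907 genes in the vKO library, 26.4% were. The median ratio of the members was 2.67 in the control and 2.35 in the vKO library, while the median of all genes tested was 1.18 and 1. TMM scaling, which balances the bulk of genes between sums, lowered every germ over somatic ratio by 0.3 on the log2 scale in the control and by 0.32 in the vKO library. Under it, 6 members stayed at least 2-fold higher in control germ cells but only 4 did in Brca1 vKO germ cells, where Fancg fell to 1.77 and Fancm to 1.99. Against Sertoli cells alone Fancg was at 1.92 in that library.

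For the cycling comparison the background was lower. Of all genes tested, 4.72% were at least 2-fold higher in cycling than in non-cycling somatic cells of the control library and 4.43% in the vKO library. The median ratio of the members was 2.08 and 2.7, beside 1.02 and 1.03 for all genes tested.

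Against cycling somatic cells, 4 of the 10 members were at least 2-fold higher in control germ cells. These were Fancf, Fancm, Fanci and Fancd2. The share over all genes tested was 32.1%, so the count of members was close to the background. The count was 2 under TMM scaling and also 2 with each cell thinned to 2000 UMIs. In the vKO library 3 members passed, Fancf, Fancm and Fanci, against 26% of all genes. Fancd2 lay next to the threshold, and under it in the control in 6 of the 14 alternatives, the lowest at 1.63. Its values in the control and vKO libraries were 2.06 (1.86 to 2.28) and 1.99 (1.74 to 2.27), and Fanca was just under 2-fold, at 1.96 (1.75 to 2.2) and 1.89 (1.61 to 2.2).

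FANCI and FANCD2 form the clamp that the core complex modifies. Fancd2 (ENSMUSG00000034023) lies at chr6:113531682-113597017 on the plus strand of GRCm38. It was measured at 41.1 CPM (38.8 to 43.4) in control germ cells and at 36.3 CPM (32.2 to 40.6) in Brca1 vKO germ cells. In somatic cells it stood at 8.11 CPM (7.48 to 8.79) and 7.99 CPM (7.52 to 8.47). The germ level was thus 5.06-fold (4.59 to 5.59) the somatic one in the control and 4.54-fold (3.98 to 5.16) in the vKO library. Cycling cells held 555 of the 608 somatic Fancd2 UMIs of the control library and 1023 of the 1113 of the vKO library. In cycling somatic cells Fancd2 reached 20 CPM in the control and 18.2 CPM in the vKO library, while non-cycling somatic cells were at 1.12 and 1.08 CPM. These ratios, 17.8 (13.4 to 24) and 16.9 (13.6 to 21.1), were the largest of any member under this definition of cycling. Both depended on that definition. With cycling called by the S list alone the Fancd2 ratios were 5.02 (4.21 to 6.01) and 4.46 (3.92 to 5.1), beside 5.13 and 4 for Fanci and 4.81 and 4.72 for Fanca, so that Fancd2 was not the largest in either library. A higher cut on both lists gave 10.8 and 7.53 for Fancd2, and cells thinned to 2000 UMIs gave 41.8 (10.7 to 359) in the control. By class the ratios were 17.2 and 13.5 in Sertoli, 19 and 34.5 in stromal and 26.4 and 24.6 in myoid cells of the control and Brca1 vKO libraries. Fancd2os, which overlaps Fancd2 on the other strand, had 2 UMIs in control and 0 in Brca1 vKO germ cells.

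Fanci (ENSMUSG00000039187) lies at chr7:79391929-79450264 on the plus strand of GRCm38. Fanci followed the same order. It was measured at 20.1 CPM (18.5 to 21.7) in control and 19.7 CPM (16.7 to 22.9) in Brca1 vKO germ cells, and at 3.43 and 3.44 CPM in somatic cells. The germ over somatic ratios of 5.85 (5.04 to 6.79) and 5.71 (4.74 to 6.83) were the largest among the members, except with cells thinned to 2000 UMIs, where Fanci stood at 4.6 and 3.45 and Fancd2 at 5.5 and 5.67, and as a mean of per-cell CPM in the vKO library, with 5.64 for Fanci and 5.78 for Fancd2. In cycling somatic cells Fanci was at 7.89 and 7.14 CPM and in non-cycling somatic cells at 0.806 and 0.949 CPM. The corresponding ratios were 9.79 (6.91 to 14.2) and 7.53 (5.9 to 9.71), and those with cycling called by the S list alone were 5.13 and 4. Set against cycling somatic cells alone, germ cells were 2.54-fold (2.17 to 2.98) and 2.75-fold (2.28 to 3.31) higher. With thinned cells the control ratio was 1.63 (0.817 to 3.32), under 2-fold and with an interval that included 1.

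FANCA and FANCG make up one module of the core complex. Fanca (ENSMUSG00000032815) lies at chr8:123268300-123318576 on the minus strand of GRCm38. It stood at 31.8 CPM (29.8 to 33.9) in control and 25.6 CPM (22.3 to 29.3) in Brca1 vKO germ cells. It was next highest in Sertoli cells, at 9.93 and 8.93 CPM, and lower in stromal cells, at 4.06 and 2.66 CPM, and in myoid cells, at 3.2 and 2.15 CPM. Germ, Sertoli and stromal levels had intervals that did not overlap in either library, whereas those of stromal and myoid cells did. In non-cycling stromal cells of the control library Fanca was represented by 4 UMIs, 0.405 CPM, against 46 UMIs, 18.8 CPM, in cycling stromal cells. The ratio in Sertoli cells was 3.14 (2.6 to 3.8) and 3.34 (2.87 to 3.91), below the stromal ratios of 46.5 (17 to 178) and 15.2 (8.29 to 29.5). Non-cycling Sertoli cells kept 5.14 and 4.17 CPM of Fanca, above the level of non-cycling stromal cells in both libraries.

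Fancg (ENSMUSG00000028453) lies at chr4:43002343-43010506 on the minus strand of GRCm38. It was measured at 7.43 CPM (6.49 to 8.48) in control and 6.23 CPM (4.64 to 8.19) in Brca1 vKO germ cells. In somatic cells it was at 2.94 and 2.81 CPM, which gave germ over somatic ratios of 2.53 (2.09 to 3.06) and 2.21 (1.62 to 2.97). Cycling somatic cells were 2.6-fold (1.97 to 3.44) and 3.95-fold (3.15 to 4.98) above non-cycling ones. The intervals of these cycling ratios overlapped, and no statement on a difference between the libraries follows. Against cycling somatic cells the germ ratio was 1.55 (1.25 to 1.94) in the control and 1.23 (0.892 to 1.66) in the vKO library, where the interval included 1.

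FANCB and FANCL make up the catalytic module, in which FANCL is the ligase. The genes differed in pattern. Fancb (ENSMUSG00000047757) lies at chrX:164980592-164997272 on the plus strand of GRCm38. It stood at 4.08 CPM (3.39 to 4.88) in control germ cells and 3.51 CPM (3.1 to 3.96) in somatic cells. In the vKO library it stood at 3.78 CPM (2.57 to 5.37) and 3.01 CPM (2.73 to 3.32). The intervals of neighbouring classes overlapped in both libraries, and the germ over somatic ratio was 1.16 (0.931 to 1.45) in the control and 1.26 (0.842 to 1.81) in the vKO library. The direction of this ratio was not settled. In the control it was 0.945 under TMM scaling, 0.886 as a mean of per-cell CPM and 0.31 (0.0357 to 1.23) with each cell thinned to 2000 UMIs. In the vKO library it was 0.295 (0.0356 to 1.07) in cells of at most 5% mitochondrial UMIs and 2.22 (0.256 to 8.78) with thinned cells. In somatic cells, however, cycling cells had 3.62-fold (2.78 to 4.75) and 4.28-fold (3.43 to 5.38) the level of non-cycling cells. Fancb was lower in germ than in cycling somatic cells in both libraries, at 0.634-fold (0.499 to 0.802) and 0.681-fold (0.455 to 0.986).

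Fancl (ENSMUSG00000004018) lies at chr11:26386135-26471876 on the plus strand of GRCm38. It was measured at 39.7 CPM (37.5 to 42) in control and 30.2 CPM (26.5 to 34.2) in Brca1 vKO germ cells, and at 27.7 and 25.7 CPM in somatic cells. Its germ over somatic ratio of 1.43 in the control became 1.16 under TMM scaling. In the vKO library a ratio of 1.17 became 0.939 and turned direction. Cycling somatic cells were 1.29-fold (1.18 to 1.4) and 1.17-fold (1.09 to 1.25) above non-cycling ones. Sertoli, stromal and myoid cells had overlapping intervals in each library, from 23.2 to 27.8 CPM.

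FANCC, FANCE and FANCF form the module that binds the substrate. Fancf (ENSMUSG00000092118) lies at chr7:51860577-51862267 on the minus strand of GRCm38. Its level was higher in germ than in somatic cells and near equal in cycling and non-cycling cells of the pooled somatic classes. It stood at 16.5 CPM (15.1 to 18) in control and 13.8 CPM (11.4 to 16.6) in Brca1 vKO germ cells, and at 5.36 CPM (4.85 to 5.92) and 4.99 CPM (4.62 to 5.37) in somatic cells. The cycling over non-cycling ratios were 1.07 (0.866 to 1.31) and 1.02 (0.878 to 1.19), while cycling cells called by the S list alone gave 1.38 (1.12 to 1.7) in the control. By class the ratios were higher, at 1.2 and 1.13 in Sertoli, 1.18 and 1.16 in stromal and 1.39 and 1.12 in myoid cells. The interval of each included 1. The germ ratio was almost the same against all somatic cells, 3.08 and 2.77, as against cycling somatic cells, 2.96 (2.46 to 3.57) and 2.73 (2.17 to 3.4). With cells thinned to 2000 UMIs the vKO ratio against all somatic cells was 1.41 (0.376 to 3.74), no longer past 2-fold. Among somatic classes Fancf was higher in stromal cells, at 10.4 CPM (8.68 to 12.4) and 8.7 CPM (7.51 to 10), than in Sertoli cells, at 4.54 and 4.56 CPM, and in myoid cells, at 3.2 and 2.49 CPM. Fancf overlaps Gas2 on the other strand, as Fanca does Zfp276, Fancl Vrk2 and Fanci Polg, and Fancc overlaps Gm16132 on its own strand. How reads in these overlaps were shared was not examined.

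Fancc and Fance, from the same module, were spread over all classes. Fancc (ENSMUSG00000021461) lies at chr13:63285043-63497278 on the minus strand of GRCm38. Fance (ENSMUSG00000007570) lies at chr17:28313519-28326572 on the plus strand of GRCm38. Fancc stood at 43.2 CPM (40.9 to 45.6) in control and 34.4 CPM (30.5 to 38.7) in Brca1 vKO germ cells, beside 35.3 and 34 CPM in stromal, 33.5 and 32.7 CPM in myoid and 26.8 and 28.1 CPM in Sertoli cells. Germ and stromal intervals overlapped in the vKO library but not in the control, and the germ over somatic ratio of 1.17 in the vKO library was 0.933 under TMM scaling. Fance had the order germ, stromal, myoid and Sertoli in both libraries. Its levels were 29.9, 28.2, 24.9 and 18 CPM in the control and 26.6, 26, 24.6 and 18.9 CPM in the vKO library, and the intervals of germ, stromal and myoid cells overlapped at each step. Over the pooled somatic classes its cycling over non-cycling ratio was below 1 in both libraries, at 0.836 (0.75 to 0.931) and 0.871 (0.807 to 0.94). By class this ratio was 0.84 and 0.912 in Sertoli, 1.23 and 1.03 in stromal and 0.963 and 1.1 in myoid cells. A value below 1 in both libraries was thus seen in Sertoli cells only. Fancc stood at 1.25 and 1.19 over the pooled classes.

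FANCM is a DNA translocase that anchors the core complex on chromatin. Fancm (ENSMUSG00000055884) lies at chr12:65075603-65132058 on the plus strand of GRCm38. It was measured at 40.1 CPM (37.9 to 42.5) in control and 40.8 CPM (36.5 to 45.4) in Brca1 vKO germ cells, and at 14.3 and 16.4 CPM in somatic cells. The germ over somatic ratios were 2.8 (2.58 to 3.04) and 2.49 (2.21 to 2.8). Cycling somatic cells were 1.56-fold (1.38 to 1.76) and 1.46-fold (1.34 to 1.59) above non-cycling ones, and with thinned cells the control ratio passed 2-fold, at 2.64 (1.73 to 4.05). The ratio was near 1.3 in Sertoli cells, at 1.33 and 1.24, and higher in stromal cells, at 2.13 and 1.99, and in myoid cells, at 3.52 and 2.82. Fancm was 2.16-fold (1.95 to 2.4) and 2.02-fold (1.78 to 2.29) higher in germ than in cycling somatic cells. The control value fell under 2-fold with TMM scaling, at 1.8, as a mean of per-cell CPM, at 1.84, and with thinned cells, at 1.73 (1.18 to 2.55).

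**Figure D2:**
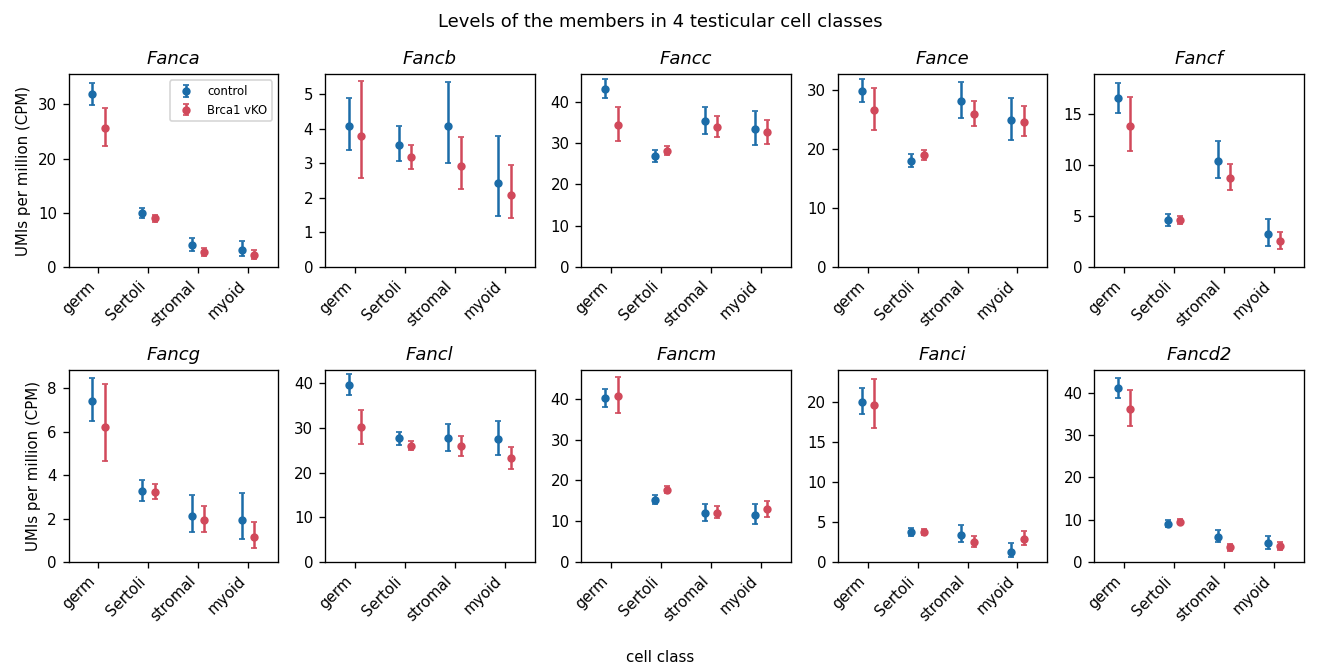
Levels of the 10 members in UMIs per 1000000 (y axes, from 0) in germ, Sertoli, stromal and myoid cells (x axes) of the control and Brca1 vKO libraries, with 95% counting intervals as bars. Fanca, Fancf, Fancg, Fancm, Fanci and Fancd2 were highest in germ cells with no overlap with the next class, whereas the intervals of neighbouring classes overlapped for Fancb.

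**Figure D3:**
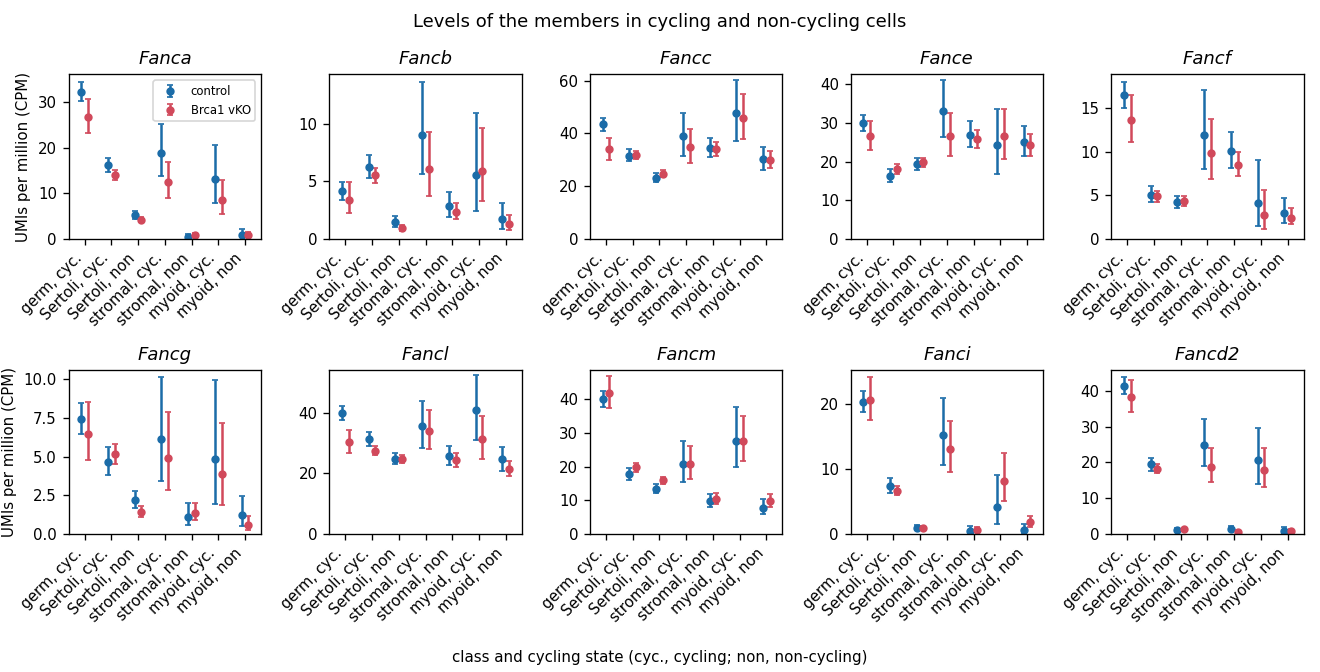
Levels of the 10 members in UMIs per 1000000 (y axes, from 0) in cycling germ cells and in cycling and non-cycling cells of each somatic class (x axes), with 95% counting intervals. For Fanci and Fancd2 the non-cycling somatic classes lay near 0, between 0.507 and 1.79 CPM, in each class and library.

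Cycling cells were further parted by which of the lists was high, a split chosen after the data were seen. In somatic cells high in the S list alone, relative to those high in the G2M list alone, Fanca was 1.59-fold higher in both libraries, with intervals of 1.22 to 2.06 and 1.29 to 1.95. Fancm was higher in the same direction, at 1.68 (1.35 to 2.08) and 1.7 (1.45 to 1.99), as was Fancl at 2.02 (1.7 to 2.39) and 1.34 (1.16 to 1.55). Fancd2 went the other way, at 0.646 (0.481 to 0.857) and 0.491 (0.382 to 0.624). The intervals of Fanci, at 0.788 (0.5 to 1.2) and 0.858 (0.61 to 1.18), included 1. Somatic cells high in both lists had more Fancd2 than either group, at 37.3 and 33.9 CPM. It stood at 12.3 and 9.53 CPM with the S list alone and at 19.1 and 19.4 CPM with the G2M list alone. Fanca, at 28.3 and 23.4 CPM, and Fanci, at 14.7 and 13.6 CPM, were also highest in cells high in both lists. Fancm in both libraries and Fancl in the control were instead highest with the S list alone. In control germ cells 544 of 889 were high in both lists, and 68 in the G2M list alone. There the S over G2M ratio of Fancd2 was 1.68 (1.12 to 2.61), opposite in direction to somatic cells, a difference that was not tested, and that of Fanca was 1.62 (1.02 to 2.68). In vKO germ cells the Fancd2 ratio was 1.11 (0.568 to 2.37). The control germ cells high in the G2M list alone had a median of 9059.5 UMIs, against 33279 in those high in the S list alone.

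Germ cells were next divided by their leading marker pair into 279 control and 180 Brca1 vKO cells led by Gfra1 and Ret, the markers of undifferentiated spermatogonia, 315 and 13 led by Kit and Stra8, the markers of differentiation, and 295 and 53 led by neither pair. In the control library Fancb stood at 5.71 CPM (4.46 to 7.2) in Gfra1/Ret cells, at 4.69 CPM (3.21 to 6.62) in cells led by neither and at 1.79 CPM (1.08 to 2.8) in Kit/Stra8 cells. It was the single member of the 10 that differed by at least 2-fold between the ends of this order, with a ratio of 0.313 (0.178 to 0.526). Of all genes tested there, 19.3% differed by at least 2-fold either way. In the vKO library the 13 Kit/Stra8 cells held 0 Fancb UMIs of 348680, which allows a level of up to 8.6 CPM, so a fall of this size was not detectable.

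Smaller differences between control Kit/Stra8 and Gfra1/Ret cells went in both directions. Fance, at 37.5 CPM (33.9 to 41.4) against 22 CPM (19.5 to 24.8), and Fancd2, at 52.5 CPM (48.2 to 57) against 36.4 CPM (33.1 to 39.9), were higher in Kit/Stra8 cells. Fanca was also higher there, at 41.8 against 28.7 CPM, as was Fancm, at 48.1 against 37.5 CPM. Fancc, at 35.9 CPM (32.4 to 39.7) against 51.2 CPM (47.3 to 55.3), and Fanci, at 17.8 CPM (15.4 to 20.5) against 23.9 CPM (21.2 to 26.8), were lower. Fanci and Fancd2, whose products act as a pair, thus had ratios on opposite sides of 1, 0.745 (0.618 to 0.897) and 1.44 (1.27 to 1.64). Fancf, Fancg and Fancl had intervals that included 1. The cells led by neither pair had a median of 9547 UMIs against 42762 and 33716 in the Gfra1/Ret and Kit/Stra8 cells, and the part of depth in these levels was not tested.

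**Figure D4:**
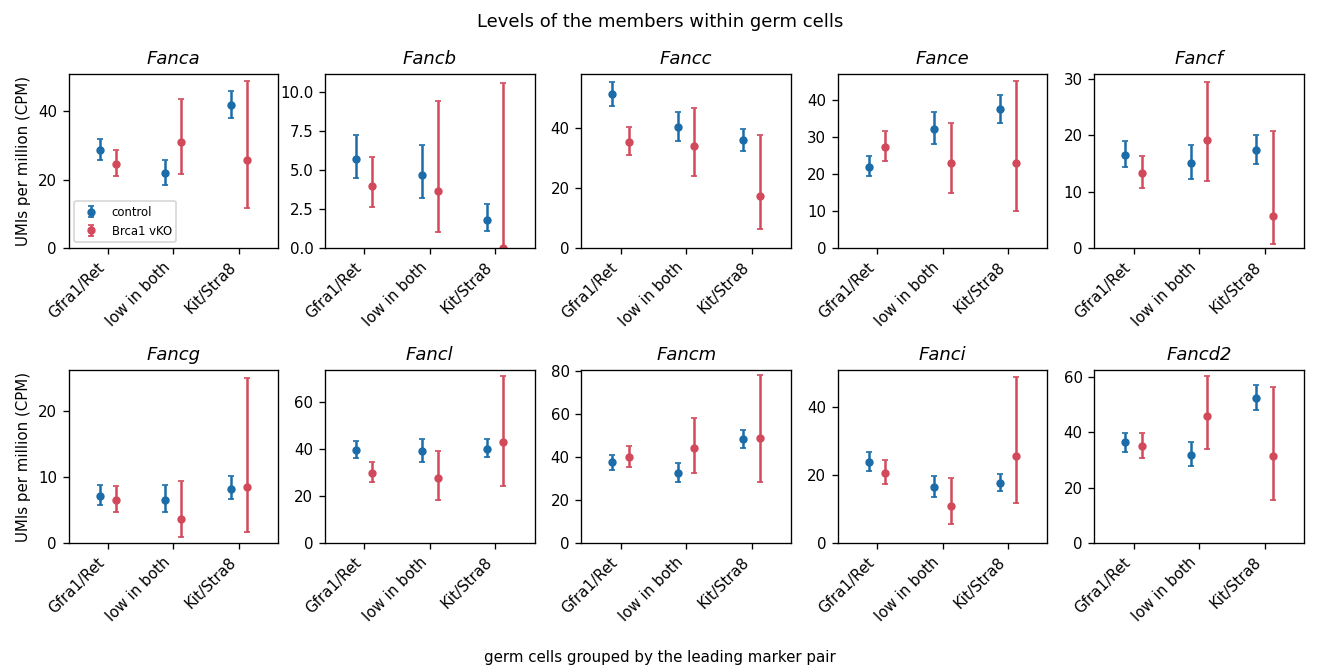
Levels of the 10 members in UMIs per 1000000 (y axes, from 0) in germ cells grouped by the leading marker pair (x axes), with 95% counting intervals for the control and Brca1 vKO libraries. Fancb is at 5.71 CPM in control Gfra1/Ret cells and at 1.79 CPM in control Kit/Stra8 cells, and the 13 Brca1 vKO Kit/Stra8 cells have wide intervals for every member.

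The study asked whether BRCA1 is needed while undifferentiated spermatogonia form. Brca1 itself was at 71.7 CPM (68.7 to 74.8) in control and 45 CPM (40.6 to 49.9) in Brca1 vKO germ cells, a ratio of 0.628 (0.561 to 0.702). In somatic cells the ratio was 0.8 (0.755 to 0.847). The floxed allele loses internal exons while the assay counts the 3′ ends of transcripts, so these values do not check the deletion.

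None of the members differed by 2-fold between Brca1 vKO and control germ cells. Of all genes tested, 16.3% differed by that much in either direction. The members were too few for a count of 0 to set them apart from this share. The share also takes in genes with as few as 20 UMIs, whose ratios are less certain. Fancb, the member with the fewest UMIs, had 31 in vKO and 122 in control germ cells. The lowest ratio was that of Fancl, at 0.759 (0.659 to 0.872), followed by Fancc at 0.796 (0.698 to 0.907) and Fanca at 0.805 (0.69 to 0.936). Fancm at 1.02 (0.897 to 1.15), Fanci at 0.98 (0.818 to 1.17) and Fancd2 at 0.882 (0.775 to 1) had intervals that reached 1. So did Fancb at 0.926 (0.603 to 1.38), Fance at 0.891 (0.765 to 1.03), Fancf at 0.836 (0.675 to 1.03) and Fancg at 0.838 (0.605 to 1.14). With cells of at most 5% mitochondrial UMIs alone, Fancb passed 2-fold, at 0.225 (0.0264 to 0.865), so that the count was 1 in place of 0. With cells thinned to 2000 UMIs, Fancl was at 1.01 (0.552 to 1.76). The median ratio of the members was 0.86 beside 0.956 for all genes tested.

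The make-up of the germ cells differed between the libraries, since Kit/Stra8 cells made up 315 of 889 control and 13 of 246 vKO germ cells. Within Gfra1/Ret cells, Fancl was at 0.754 (0.637 to 0.89) and Fancc at 0.692 (0.594 to 0.804), much as over all germ cells, whereas Fance was at 1.24 (1.03 to 1.5) against 0.891 (0.765 to 1.03) over all germ cells. The Gfra1/Ret cells were themselves not alike in the control and vKO libraries. Kit stood at 9.09 and 32.7 CPM in them, Stra8 at 32.5 and 25.2 CPM and the germ marker Zbtb16 at 365 and 212 CPM. In somatic cells the ratios of the 10 members ran from 0.859 for Fancb to 1.14 for Fancm. Within single somatic classes, Fancd2 was at 0.572 (0.409 to 0.799) in stromal cells and Fanci at 2.26 (1.12 to 5.04) in myoid cells, the latter from 43 and 10 UMIs. Both were picked from the ratios of all members and classes. Cycling cells were 15.4% of control and 11.4% of vKO stromal cells. In cycling stromal cells Fancd2 was at 25 CPM (19.1 to 32.1) in the control and 18.8 CPM (14.5 to 23.9) in the vKO library, with overlapping intervals. The germ class of the vKO library also had a higher level of the Sertoli marker Clu, 63.4 CPM against 30.8 CPM in the control, and a higher median share of mitochondrial UMIs, 5.67% against 4.99%. The red cell gene Hbb-bs was lower there, at 24 CPM against 350 CPM. The differences in Clu and Hbb-bs were not particular to germ cells. Clu was at 60.7 CPM in vKO against 29.8 CPM in control stromal cells, and at 65.9 against 35.1 CPM in myoid cells. Hbb-bs was lower in the vKO library in Sertoli, stromal and myoid cells as well. The part of these differences in the ratios was not tested.

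**Figure D5:**
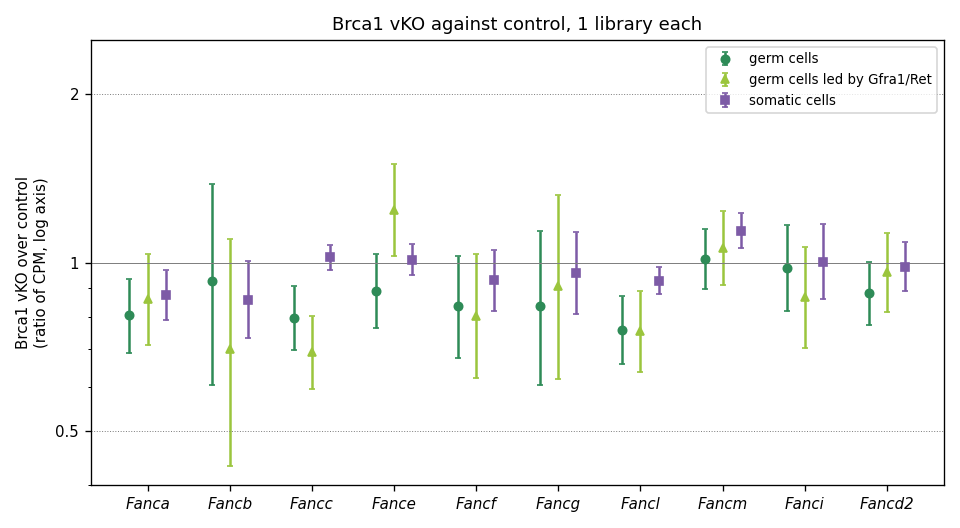
Ratio of CPM in the Brca1 vKO over the control library (y axis, log scale) for each member (x axis) in all germ cells, in germ cells led by Gfra1 and Ret and in somatic cells, with 95% counting intervals and dotted lines at 0.5 and 2. All ratios lie between 0.692 and 1.24.

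The wider pathway was described with a list of 26 further genes. In germ over somatic cells 12 of the 26 were at least 2-fold higher in the control and 11 in the vKO library, beside 31.9% and 26.4% of all genes tested. At least 2-fold lower were 1 and 2 of the 26, beside 26.1% and 30.6% of all genes. The median ratio of the list was 1.89 and 1.47, beside 1.18 and 1 for all genes tested. Several genes of the recombination arm were among the higher ones in both libraries. Rad51c, which acts in homologous recombination, had the largest ratios, 10.4 (9.05 to 11.9) and 9.53 (8.18 to 11.1). Palb2, which joins BRCA1 to BRCA2, stood at 4.73 and 5.47, Brip1, a helicase that binds BRCA1, at 3.45 in both libraries, Brca2, a mediator of homologous recombination, at 3.4 and 3.58, Xrcc2, which acts in the same repair, at 2.97 and 3.34, and Brca1 at 2.7 and 2.12.

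Of the genes nearer to the members, Ube2t, the ubiquitin-conjugating enzyme that works with FANCL, was 5.89-fold and 5.9-fold higher in germ cells. Cenps, which binds FANCM as part of a histone-fold pair, was at 5.34 and 4.21, Wdr48, a partner of the enzyme that removes ubiquitin from FANCD2, at 2.41 and 2.35, and Eme1, the partner of the MUS81 nuclease, at 3.48 and 3.59. Ercc4, the XPF nuclease that cuts crosslinked DNA, went the other way, at 0.164 (0.128 to 0.208) and 0.149 (0.0893 to 0.233). Slx1b, the catalytic subunit of a structure-specific nuclease, was 3.36-fold (2.99 to 3.79) higher in control germ cells but 1.42-fold (1.1 to 1.8) in Brca1 vKO germ cells. It was the single pathway gene outside the members that differed by 2-fold between the genotypes in germ cells, at 0.404 (0.313 to 0.517). Mad2l2, a subunit of the translesion polymerase zeta, was 3.41-fold (2.49 to 4.72) higher in Kit/Stra8 than in Gfra1/Ret cells of the control.

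Between cycling and non-cycling somatic cells, 11 of the 26 genes in the control and 10 in the vKO library were at least 2-fold higher, beside 4.72% and 4.43% of all genes tested. None of the 26 was 2-fold lower, beside 8.63% and 12% of all genes. Brip1 had the largest ratios, at 18.1 (15.3 to 21.7) and 13.4 (11.9 to 15.2). Eme1 stood at 13.3 and 11, Brca1 at 12.9 and 8.1 and Ube2t at 9.89 and 8.86. Rad51c was 2.7-fold and 1.67-fold higher in cycling cells, so that among germ and cycling somatic cells it still differed by 6.26 (5.3 to 7.44) and 7.26 (6.09 to 8.64). For Brca1 that ratio was 1.13 (1.06 to 1.21) in the control, slightly above 1, and 1.01 (0.903 to 1.13) in the vKO library, where the interval included 1.

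Genes with the most similar pattern were sought over 14 sums of cells, 1 for each somatic class, cycling state and library and 1 for the cycling germ cells of each library, among 13277 genes with at least 500 UMIs. The sums share libraries and differ in depth, and the correlations are given as a description. Among the genes most like the summed level of the members were Baz1b (r = 0.99), Rfc4 (0.99), Cenps (0.986) and Mybl2 (0.983). Fancd2 was most like Espl1 (0.996), Ttk (0.995), Ube2t (0.994), Rad54b (0.993) and Nek2 (0.99), and Fanci most like Ercc6l (0.978), Asf1b (0.974), Xrcc2 (0.973), Mgme1 (0.971) and Kif24 (0.969). Among the members, Fanca and Fancg (0.978) and Fancg and Fancd2 (0.978) were closest, and Fanca and Fance (0.155) were farthest apart. With the summed cycle lists, r ran from 0.147 for Fance and 0.359 for Fancf to 0.95 for Fancd2.

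Promoter windows of 9 members were taken from RefSeq on GRCm38.p6, where Fancd2 had no entry in the table used. The 250 bases before each start were searched on both strands for an E2F core word, which was TTCCCGC or TTGGCGC or TTCGCGC or TTGCCGC. They were also searched for a CHR word, either TTTGAA or TTCGAA, and for CCAAT. An E2F core word was found in 4 of the 9, Fancb, Fancf, Fancg and Fancm, and in 7.89% of all 32851 windows. CCAAT was found in 6 of the 9 and in 33.8% of all windows. A CHR word was found in 0 of the 9 and in 17.1% of all windows. Not all of these windows lie upstream of the gene as GENCODE annotates it. The RefSeq start differed from the GENCODE start by 65533 bases in Fancc, 949 in Fancl, 409 in Fanci, 205 in Fancg and 11 in Fance. Annotated UTR covered all 250 bases of the Fancl window, 208 of the Fanci and 177 of the Fancf window. The counts over 9 windows are therefore not set against the members' ratios. These matches are letters in a window and not sites of binding. Shown are the windows of Fanca, Fancb and Fancm. They are the members whose RefSeq and GENCODE starts coincide and whose upstream stretch is free of annotated UTR for at least 200 bases. Capitals mark E2F core words and CCAAT or their reverse complements, and each is read 5′ to 3′ on the strand of its gene.
Fanca, chr8:123318577-123318826, minus strand: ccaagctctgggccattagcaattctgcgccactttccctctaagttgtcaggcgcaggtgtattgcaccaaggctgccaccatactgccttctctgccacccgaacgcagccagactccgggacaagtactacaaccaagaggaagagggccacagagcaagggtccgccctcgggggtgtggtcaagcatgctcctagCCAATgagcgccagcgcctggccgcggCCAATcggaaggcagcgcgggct
Fancb, chrX:164980376-164980591, plus strand: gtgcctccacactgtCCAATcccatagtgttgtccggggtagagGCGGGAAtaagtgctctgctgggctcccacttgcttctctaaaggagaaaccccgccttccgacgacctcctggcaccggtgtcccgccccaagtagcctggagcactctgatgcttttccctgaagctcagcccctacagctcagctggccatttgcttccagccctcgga
Fancm, chr12:65075353-65075602, plus strand: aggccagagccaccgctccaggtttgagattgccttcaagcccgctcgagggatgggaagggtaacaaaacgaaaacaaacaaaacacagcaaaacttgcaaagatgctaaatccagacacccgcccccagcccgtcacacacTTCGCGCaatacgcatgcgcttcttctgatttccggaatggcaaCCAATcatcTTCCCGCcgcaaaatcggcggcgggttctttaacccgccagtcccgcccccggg
In Fanca the CCAAT words began 50 and 23 bases before the start. In Fancb the E2F word began 172 bases before the start, and in Fancm the E2F words began 107 and 54 bases and CCAAT 63 bases before it.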

How the data were processed

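Testes of 1 control and 1 Brca1 vKO mouse at PD7 were profiled by 10x Genomics single-cell RNA-seq. Per the study's methods and the labels, the authors aligned the reads to mm10 with Cell Ranger 6.0.2 and analysed them in R 4.2.3 with Seurat 4.3.0.1. The deposited values are counts of unique molecular identifiers (UMIs) per gene and cell, not normalized, which the authors took from Cell Ranger. The control library held 5812 barcodes and 120568700 UMIs and the Brca1 vKO library 9456 barcodes and 165062097 UMIs.

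The filter on cells asked for 750 or more detected genes and a mitochondrial share of 10% or less. A cell joined a class where its marker pair reached 2 (germ), 5 (Sertoli), 10 (stromal) or 15 (myoid) UMIs per 10000 and at least 3 UMIs and no other class passed. This left 4501 control and 7832 Brca1 vKO cells, while 257 and 351 cells passed more than one gate, 164 and 324 had markers of another cell type and 155 and 205 passed none. Cells with markers of more than one class were left out as likely doublets. Scrublet marked 31 and 59 of the cells kept, and these were removed only in an alternative. Of the somatic cells, 750 of 3612 and 1850 of 7586 lay within 2-fold of the cycling cut of 20 per 10000. Cells were also parted by each list at 20 per 10000.

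UMIs were summed per class and library and divided by the total (UMIs per 1000000, CPM). Intervals at the 95% level are exact Poisson intervals for levels and exact conditional (Clopper-Pearson) intervals for ratios. With 1 library per genotype no test was run. A gene entered a ratio when its UMIs in the compared sums came to 20 or more, and genes past 2-fold were counted. Where a sum held 0 UMIs, the limit is 3 counts of its total. The median ratios given above are medians of CPM ratios without a pseudocount. Medians of log2 ratios, which are not given here, used a pseudocount of 10 CPM. The calculation of ratios was tested on simulated data. Likeness was Pearson's r of log2(CPM + 10). Analyses used Python 3.11.15, numpy 2.4.6, scipy 1.17.1, scanpy 1.11.5, leidenalg 0.10.2, R 4.3.3 and edgeR 4.0.16, the last for TMM factors only.

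All members were named. Of the 26 further pathway genes, those past 2-fold in germ over somatic cells in both libraries were named, with at most 3 others of large fold. Genes most like Fanci, Fancd2 and the summed members were the 5 with the highest r. A gene that these rules name is not reported here. The members and lists were chosen with earlier results of these data known. Alternatives were clusters in place of marker gates, other filters on mitochondrial share, depth, doublets and low counts, TMM scaling, the mean of per-cell CPM, cells thinned to 2000 UMIs, a pseudocount of 1, other cycle cuts and lists, and Sertoli cells as the somatic class. Germ cells led by Gfra1 and Ret alone, cycling germ cells alone and the split by S and G2M lists were chosen after seeing the data.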

Additional observations from a re-analysis of the deposited data

Results flagged for a closer look

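Fance was marked because its ratio of cycling over non-cycling cells lay on opposite sides of 1 in 2 cell classes, in both libraries. In Sertoli cells the ratio was 0.84 (0.738 to 0.957) in the control and 0.912 (0.834 to 0.998) in the Brca1 vKO library. In stromal cells it was 1.23 (0.948 to 1.58) and 1.03 (0.813 to 1.29), with intervals that included 1. In myoid cells it was 0.963 (0.648 to 1.4) and 1.1 (0.83 to 1.43), also with intervals that included 1. The difference between the classes was not tested.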

How the results depend on the processing

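The count of members at least 2-fold higher in germ than in somatic cells was 6 in all 11 alternatives for the control and 4 to 6 for the Brca1 vKO library, with the lowest under TMM scaling. In cycling over non-cycling somatic cells it was 5 or 6 over 12 alternatives in the control and 5 in all 12 in the Brca1 vKO library. The control count for germ over cycling somatic cells moved from 4 to 2 under TMM scaling and to 2 with each cell thinned to 2000 UMIs. With at most 5% mitochondrial UMIs, 1 member, Fancb at 0.225 (0.0264 to 0.865), in place of 0 differed by 2-fold between the genotypes in germ cells. Of 698 ratios recomputed, 546 stayed within the counting interval of the value reported and 152 left it, and 0 of those past 2-fold changed direction. Among those under 2-fold in germ over somatic cells, TMM scaling put Fancc (0.933) and Fancl (0.939) in the vKO library and Fancb in the control (0.945) below 1. Control Fancb was also below 1 as a mean of per-cell CPM (0.886) and with thinned cells (0.31), and vKO Fancb was at 0.295 with at most 5% mitochondrial UMIs and at 2.22 with thinned cells. The causes were not tested, except that TMM shifted the germ over somatic ratios of all genes alike. No paired analysis was possible because each genotype was 1 library. Intervals cover counting error of 1 mouse each. The 13 Kit/Stra8 cells of the Brca1 vKO library limit that comparison most.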
